A study of Homo sapiens with 9 samples.

Results

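Transcripts of 9 genes that the transcription factor NRF2 is known to activate were followed in A2780 cells, an established human ovarian carcinoma line, left untreated or treated with DIG-MSK. DIG-MSK, short for demycarosyl-3D-β-D-digitoxosyl-mithramycin SK, is an analogue of the antibiotic mithramycin A, and compounds of this class bind DNA rich in C and G in its minor groove. The 9 genes are NQO1, HMOX1, GCLM, GCLC, TXNRD1, SRXN1, SLC7A11, OSGIN1 and AKR1C1. They were chosen by name, as probes whose accession is a RefSeq transcript of 1 of these genes, and they were measured by 10 of the 42405 gene probes of the array. All 9 passed the filter on dim probes, out of 21807 genes tested. The 3 groups were untreated cells, cells given 8 nM DIG-MSK and cells given 80 nM DIG-MSK, each with 3 arrays from separate cultures of this 1 cell line, and drug exposure lasted 24 h. The comparisons ask which transcripts of this antioxidant programme differ after a low and after a high concentration of the drug.

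NRF2, encoded by NFE2L2, is held at a low level in resting cells because KEAP1 presents it to the CUL3 ubiquitin ligase for degradation. Electrophiles and oxidants modify KEAP1, and NRF2 then accumulates, pairs with a small MAF protein (MAFF, MAFG or MAFK) and binds antioxidant response elements (AREs) near its target genes, where BACH1 competes with it as a repressor. Its targets make and recycle glutathione and thioredoxin, supply NADPH, and detoxify quinones, carbonyls and heme, and the pathway is often active in tumor cells, where it is known to lower the effect of some drugs.

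Levels are given as the log2 of the background-corrected intensity of a probe, with the 75th percentile of its own array set to 0. A gene was called up-regulated or down-regulated with the fold limits of the study, 1.5-fold and 0.67-fold, and a limma p under 0.05, taken here as unadjusted. Adjusted p-values are those of the same limma fit after the Benjamini-Hochberg procedure, applied to the 21807 genes. One slide, in a single scan, carried all untreated and all 8 nM arrays. A second slide carried the 80 nM arrays, so that an effect of 80 nM DIG-MSK and an effect of the slide cannot be told apart. Between 24814 and 27151 probes were well above background on an array, and arrays of the same group correlated with r between 0.9891 and 0.9957. GAPDH differed from untreated cells by 0.02 at 8 nM and by -0.03 at 80 nM. Of 9 epithelial and ovarian markers, KRT8, KRT18, KRT19 and EPCAM were tested, PAX8 was well above background on 3 of the 9 arrays, and no array had CDH1, WT1, MUC16 or MSLN well above background. EPCAM was up-regulated at 8 nM (0.90, adjusted p = 0.029) and down-regulated at 80 nM (-0.93, adjusted p = 0.0065), the latter not with normexp or the authors' values and the former not with normexp. KRT8, KRT18 and KRT19 were not called, with differences of -0.05, 0.16 and 0.90 at 8 nM and 0.30, -0.01 and 0.17 at 80 nM. Of 7 markers of blood and endothelial cells, PTPRC, CD14 and CDH5 were measured, with mean levels in untreated cells between -4.17 and -3.19. PTPRC was lower at 8 nM by the same rule (-0.73, adjusted p = 0.096), with groups that overlapped. The part of these markers in the results was not tested.

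The sequences just before the transcription start show where the known binding letters of these factors lie, and 4 of the 9 genes are shown, the 3 called genes that had a sequence here and GCLM, which was called at neither concentration. RefSeq windows of 250 bases (build GRCh38.p14) were given for 7 of the 9 genes, HMOX1 and SLC7A11 not being among them, and TXNRD1 had 2 start sites. Each window was searched on both strands for the ARE core TGACNNNGC, for the GC box GGGCGG, which Sp1 binds, and for the AP-1 site TGACTCA, which overlaps the ARE core where the letters GC follow it. Of 35116 such windows in the genome, 10.9% held an ARE core, 42.6% a GC box and 4.2% an AP-1 site, and the median content of G and C was 58.0%. Matches are in capitals, and each line runs 5′ to 3′ along the strand of the gene and ends just before the start.
GCLM, chr1:93909431-93909680, minus strand: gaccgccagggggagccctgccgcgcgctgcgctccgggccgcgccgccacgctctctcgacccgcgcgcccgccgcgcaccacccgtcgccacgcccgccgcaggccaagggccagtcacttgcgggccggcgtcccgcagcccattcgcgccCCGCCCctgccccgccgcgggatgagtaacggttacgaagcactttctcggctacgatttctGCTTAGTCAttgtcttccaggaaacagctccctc
TXNRD1, upstream start, chr12:104215529-104215778, plus strand: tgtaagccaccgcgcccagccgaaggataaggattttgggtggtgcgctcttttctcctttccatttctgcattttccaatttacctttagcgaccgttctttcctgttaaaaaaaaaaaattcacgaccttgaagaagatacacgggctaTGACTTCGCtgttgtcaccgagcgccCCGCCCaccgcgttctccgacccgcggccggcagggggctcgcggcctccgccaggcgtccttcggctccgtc
TXNRD1, downstream start, chr12:104286782-104287031, plus strand: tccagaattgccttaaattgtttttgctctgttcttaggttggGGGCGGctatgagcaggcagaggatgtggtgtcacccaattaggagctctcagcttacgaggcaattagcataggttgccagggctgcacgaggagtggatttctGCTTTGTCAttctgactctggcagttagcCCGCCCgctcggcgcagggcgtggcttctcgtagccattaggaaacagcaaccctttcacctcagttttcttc
OSGIN1, chr16:83952990-83953239, plus strand: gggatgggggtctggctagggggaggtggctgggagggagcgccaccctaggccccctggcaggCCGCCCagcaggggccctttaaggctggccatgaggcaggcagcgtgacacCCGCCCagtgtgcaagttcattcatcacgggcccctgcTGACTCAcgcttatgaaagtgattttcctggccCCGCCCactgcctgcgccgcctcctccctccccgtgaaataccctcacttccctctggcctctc
AKR1C1, chr10:4963165-4963414, plus strand: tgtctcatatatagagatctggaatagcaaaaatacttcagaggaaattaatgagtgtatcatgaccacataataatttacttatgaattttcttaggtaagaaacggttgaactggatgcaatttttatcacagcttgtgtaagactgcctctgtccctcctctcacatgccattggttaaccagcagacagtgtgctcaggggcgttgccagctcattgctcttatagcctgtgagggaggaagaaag

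GCLM held 1 ARE core on the minus strand, 34 to 26 bases before its start, and 1 GC box. TXNRD1 held 1 ARE core before each of its starts, with 1 GC box before the upstream start and 2 before the downstream one. OSGIN1 held 3 GC boxes and 1 AP-1 site, and no ARE core by these letters. AKR1C1 held none of the 3 motifs, and its window was 40.8% G and C, a value that only 14.9% of all windows did not exceed. Of the windows not shown, that of NQO1 held 2 GC boxes, and those of GCLC and SRXN1 held no match, although the SRXN1 window was 80.4% G and C. A match is a description of the letters and no evidence of binding, and AREs known to act on several of these genes lie further upstream than this window.

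After 8 nM DIG-MSK, none of the 9 genes was up-regulated and 2 were down-regulated, TXNRD1 and OSGIN1. By the same rule, 4.24% of all genes passed upwards and 2.72% downwards, 6.97% in all. The other 7 genes differed from untreated cells by between -0.24 (GCLC) and 0.05 (HMOX1) on the log2 scale, and the median difference of the 9 genes was -0.16, beside -0.06 for all genes. After correction for multiple testing only OSGIN1 stayed below an adjusted p of 0.05, beside 13.6% of all genes at any fold.

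After 80 nM DIG-MSK, 1 gene was up-regulated, the cystine transporter SLC7A11, and 3 were down-regulated, the heme oxygenase HMOX1, TXNRD1 and AKR1C1. At this concentration 18.8% of all genes passed the rule upwards and 16.1% downwards, 34.9% in all, and 4 of 9 is read against that background. The median difference of the 9 genes was -0.01, beside 0.08 for all genes. The 9 genes therefore did not all differ in the same direction. HMOX1, TXNRD1 and AKR1C1 were lower on every array treated with 80 nM than on any untreated array. SLC7A11, SRXN1 and NQO1 were higher on every such array, and GCLM, GCLC and OSGIN1 overlapped with untreated cells. For AKR1C1 this held only with its spots averaged on the log2 scale. Its mean processed intensity on 80 nM replicate 3 was 82.8, against 52.3 to 78.0 on the untreated arrays. In the authors' values that array was at 6.553, within the untreated range of 6.415 to 6.625. Of all genes, 31.7% lay below and 40.3% above untreated cells on every 80 nM array. In bulk RNA, fewer cells that make a transcript and less of it per cell cannot be told apart.

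**Figure D1:**
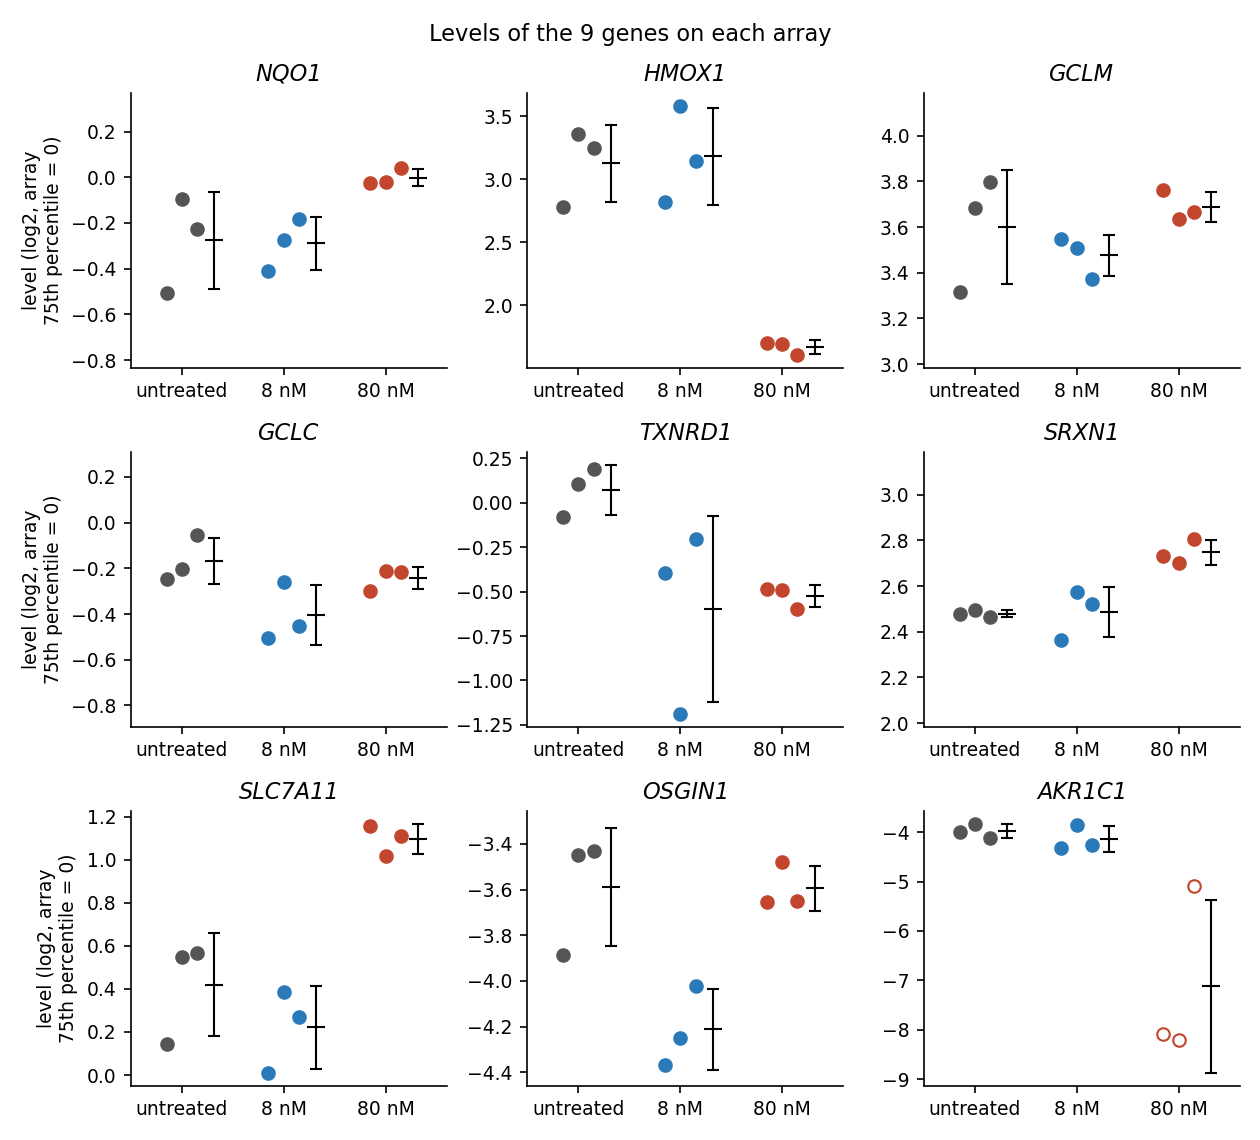
Level of each of the 9 genes on each of the 9 arrays (log2 of the processed intensity, 75th percentile of the array set to 0), with the mean and SD of the 3 arrays of a group beside the points and a separate vertical scale for each gene. Open points were not well above background. HMOX1 lies between 1.60 and 1.70 on the 80 nM arrays, below all other arrays, SLC7A11 lies between 1.02 and 1.16 there, above all others, and no 80 nM array has AKR1C1 well above background.

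Glutathione is made from cysteine, and SLC7A11, the light chain of the cystine/glutamate exchanger xCT, brings cystine into the cell. The SLC7A11 level was 0.15, 0.55 and 0.57 in untreated cells, 0.01, 0.38 and 0.27 after 8 nM, and 1.16, 1.02 and 1.11 after 80 nM DIG-MSK. The untreated and 8 nM arrays overlapped, and all 80 nM arrays lay above both groups. At 8 nM the difference was -0.20 ± 0.14 (SE; adjusted p = 0.36). At 80 nM the level rose by 0.68 ± 0.14, 1.60-fold, with an adjusted p of 0.0032, and against 8 nM it rose by 0.88 ± 0.14 (adjusted p = 0.00087). The fold was close to the limit of the rule, and without the first untreated array, the lowest of its group, the rise was 0.54 and no longer called. SLC3A2, the heavy chain that carries SLC7A11 to the membrane, had the same order of group means, with 2.14 in untreated cells, 1.81 after 8 nM and 2.55 after 80 nM. SLC3A2 was called only between the concentrations, where it rose by 0.74 ± 0.09 (adjusted p = 0.00018).

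GCLC and GCLM encode the catalytic and the modifier subunit of glutamate-cysteine ligase, the rate-limiting enzyme of glutathione synthesis. The GCLM level was 3.32, 3.69 and 3.80 in untreated cells, 3.55, 3.51 and 3.37 after 8 nM, and 3.76, 3.63 and 3.67 after 80 nM. Its groups overlapped at both concentrations, and the difference at 80 nM was 0.09, with a 95% interval from -0.20 to 0.37 that reaches neither fold limit. The GCLC level was -0.25, -0.20 and -0.05 in untreated cells, -0.50, -0.26 and -0.45 after 8 nM, and -0.30, -0.21 and -0.22 after 80 nM. All 8 nM arrays lay just below all untreated arrays (-0.24 ± 0.09), as did those of 18.4% of all genes, but the adjusted p was 0.11 and the difference was smaller than the fold limit. At 80 nM the GCLC groups overlapped, with a difference of -0.07 and an interval from -0.28 to 0.13.

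TXNRD1, the cytosolic thioredoxin reductase, passes electrons from NADPH to thioredoxin, and its level was -0.08, 0.11 and 0.19 in untreated cells. After 8 nM it was -0.39, -1.19 and -0.21, and after 80 nM it was -0.49, -0.49 and -0.60. All 6 treated arrays lay below all untreated arrays, and the second 8 nM array lay far below the other 2 of its group, with both of its spots near the same intensity (364 and 366). That array also had the fewest probes well above background of all 9 arrays, 24814. TXNRD1 was called down-regulated at 8 nM (-0.67 ± 0.23, 1.59-fold lower), but the adjusted p was 0.088, and without that array the difference was -0.37 and not called, nor was it called without the third untreated array (-0.61). In a fit on the untreated and 8 nM arrays only, which share a slide, the adjusted p was 0.17. At 80 nM the difference was -0.60 ± 0.23, 1.51-fold lower with an adjusted p of 0.049, at the edge of both limits of the rule, and it was not called when any of 5 arrays was left out, the second or the third untreated array or any 80 nM array (-0.61 to -0.54). The call was also lost with normexp (-0.43) and with the authors' values (-0.45). The difference between the concentrations was 0.07, with an interval from -0.45 to 0.59.

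SRXN1, sulfiredoxin, restores overoxidized peroxiredoxins, and its level was 2.48, 2.50 and 2.46 in untreated cells, 2.36, 2.58 and 2.52 after 8 nM, and 2.73, 2.70 and 2.81 after 80 nM. The untreated arrays were within a few hundredths of one another, and all 80 nM arrays lay above all others, as did those of 40.3% of all genes in the comparison of 80 nM with untreated cells. The difference at 80 nM was 0.27 ± 0.07 with an adjusted p of 0.015, yet at 1.20-fold it was below the fold limit, and so it was not called. NQO1, which reduces quinones to hydroquinones, was at -0.51, -0.09 and -0.23 in untreated cells, -0.41, -0.27 and -0.18 after 8 nM, and -0.03, -0.02 and 0.04 after 80 nM. The 80 nM arrays again lay above all others, by 0.27 ± 0.11 over untreated cells (adjusted p = 0.067), and this was below the fold limit. Both differences depended on the scale: relative to the spike-in probes, NQO1 and SRXN1 differed from untreated cells by -0.01 each.

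HMOX1, heme oxygenase 1, degrades heme to biliverdin, iron and carbon monoxide, and it had the lowest adjusted p of the 9 genes at 80 nM. Its level was 2.78, 3.36 and 3.25 in untreated cells and 2.82, 3.58 and 3.15 after 8 nM, and these groups overlapped (0.05 ± 0.21, adjusted p = 0.88). After 80 nM it was 1.70, 1.70 and 1.60, below every other array by more than the range within any group. The level fell by 1.46 ± 0.21 from untreated cells, 2.75-fold lower with an adjusted p of 0.00044, and by 1.52 from 8 nM, 2.86-fold lower with an adjusted p of 0.00038. The probe had 10 spots on each array. The fall was called under each of the 12 other ways of processing run, between -1.74 and -1.46, and when each array was left out, between -1.63 and -1.35.

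AKR1C1, an aldo-keto reductase that reduces carbonyl compounds and steroids, was measured at 80 nM only as a bound. The level of the probe used was -3.99, -3.84 and -4.12 in untreated cells and -4.33, -3.85 and -4.27 after 8 nM, and these groups overlapped (-0.16 ± 0.72, adjusted p = 0.89). After 80 nM it was -8.07, -8.19 and -5.10, and none of these 3 arrays had the probe well above background. AKR1C1 thus passed the filter only through the untreated and 8 nM groups, where it is high. The fitted limma differences had adjusted p-values of 0.0057 against untreated cells and 0.0076 against 8 nM. They rest on 80 nM arrays where the probe did not count as well above background. As a bound, AKR1C1 was at least 3.47-fold lower after 80 nM than in untreated cells and at least 3.09-fold lower than after 8 nM. This bound sets the mean of the brighter group against the higher, on each 80 nM array, of the measured level of the probe and the lowest signal that was well above background.

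The third 80 nM array stood apart from the other 2 because the 2 spots of that probe disagreed there. Their processed intensities were 161 and 4.45, and neither was marked as an outlier. The brighter spot was well above background and the other was not. A probe counted as well above background on an array only where most of its spots were, and so it did not count there. Without the bright spot, a setting added after seeing the data, the fitted difference was -4.00 ± 0.17 in place of -3.14 ± 0.72. The value of -3.14 includes the bright spot, and that of -4.00 rests only on 80 nM spots not well above background. The other AKR1C1 probe, with 1 spot, was at -5.14, -5.16 and -5.28 in untreated cells, -3.74, -4.98 and -5.10 after 8 nM, and -8.18, -8.12 and -7.85 after 80 nM, and no 80 nM array had it well above background either. By this probe AKR1C1 was at least 1.71-fold lower at 80 nM than in untreated cells, and the adjusted p of 0.00012 is that of the fitted difference. At 8 nM the difference was 0.59 ± 0.32 (adjusted p = 0.24), with 1 high array. Intensities this close to the background depend on how it is treated: in the values deposited by the authors, from which no background was subtracted, the difference at 80 nM was -0.97 (adjusted p = 0.035), and after a normexp background correction it was -0.53 and not called. The local background of the AKR1C1 spots was 40 to 49 on the slide of the untreated and 8 nM arrays and 22 to 35 on the slide of the 80 nM arrays, and the part of that difference in the result was not tested.

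**Figure D2:**
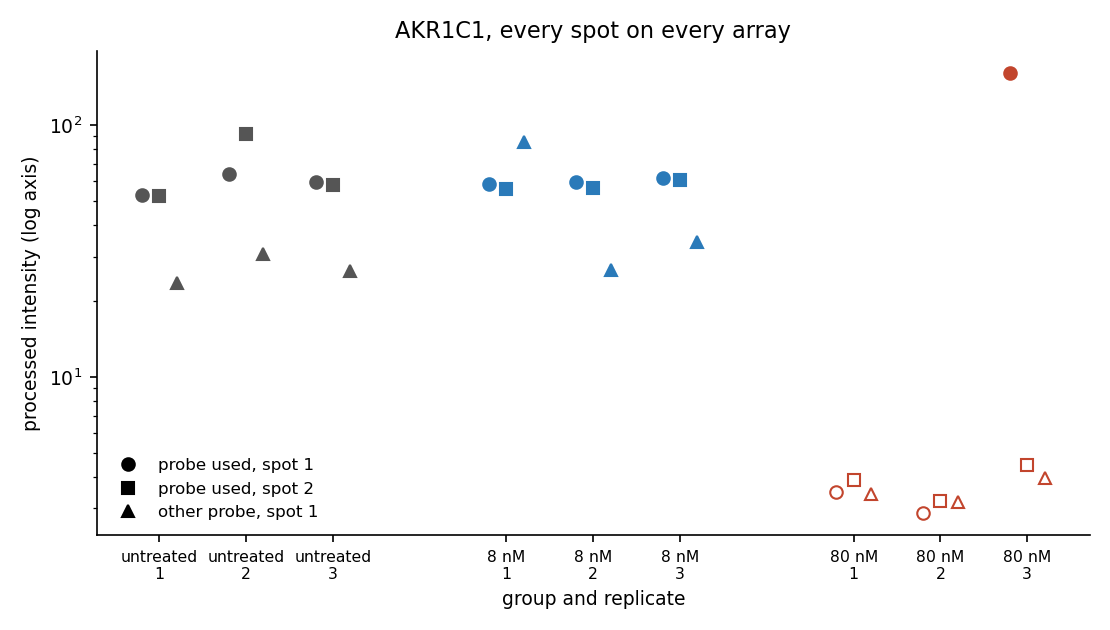
Processed intensity (log axis) of every spot of the 2 AKR1C1 probes on the 9 arrays, open where the spot was not well above background. On the 80 nM arrays all spots but 1 lie between 2.88 and 4.45. The exception, spot 1 of the probe used on the third array, is at 161 and is filled. On the untreated and 8 nM arrays the spots lie between 23.6 and 91.9.

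OSGIN1, oxidative stress-induced growth inhibitor 1, was called at 8 nM and not at 80 nM. Its level was -3.89, -3.45 and -3.43 in untreated cells, -4.37, -4.25 and -4.02 after 8 nM, and -3.65, -3.48 and -3.65 after 80 nM. The 8 nM arrays lay below all others, while the 80 nM arrays lay within the range of the untreated ones. The level fell by 0.62 at 8 nM (SE 0.14, 1.54-fold lower, adjusted p = 0.024) and rose by 0.62 ± 0.14 from 8 nM to 80 nM (adjusted p = 0.0063), and the difference between 80 nM and untreated cells was -0.01 with an interval from -0.34 to 0.32. In the fit on the untreated and 8 nM arrays only, the fall had an adjusted p of 0.068. The probe is dim, with processed intensities between 43.8 and 100.5 on a single spot, and the fall was no longer called under quantile normalization (-0.58), scaling to the spike-in probes (-0.55), normexp (-0.37) or with the authors' values (-0.44), nor without the second (-0.55) or the third (-0.55) untreated array or the first 8 nM array (-0.55).

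Between the 2 drug concentrations, SLC7A11 and OSGIN1 were higher at 80 nM and HMOX1 and AKR1C1 were lower, 2 genes in each direction, beside 19.5% and 14.0% of all genes, or 33.5% in all. This comparison shares its arrays with the other 2 and is no separate evidence for them.

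**Figure D3:**
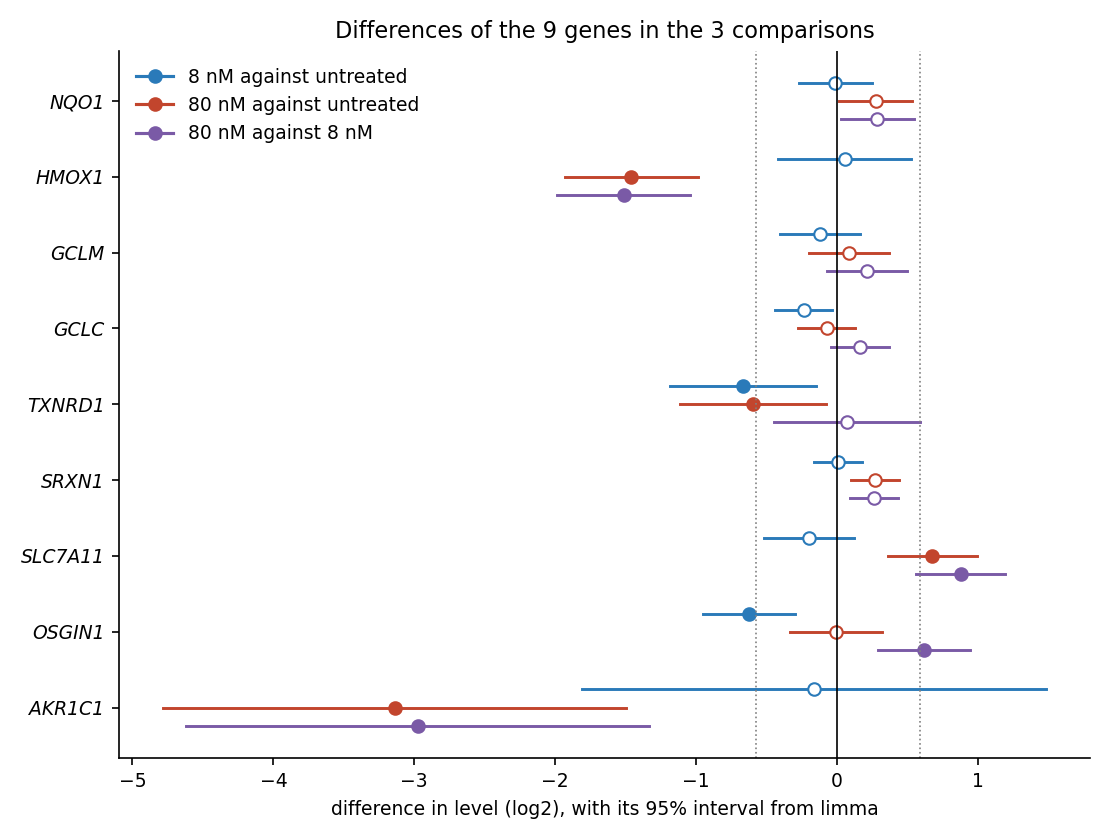
Difference in level of each gene (log2) in the 3 comparisons, with the 95% interval from limma. Filled points were called and dotted lines mark the limits of 1.5-fold and 0.67-fold. HMOX1 and AKR1C1 lie left of the lower limit in both comparisons with 80 nM, and the interval of AKR1C1 is the widest.

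The regulators of NRF2 were examined next. NFE2L2, which encodes NRF2 itself, had 1 probe, which was not well above background on any of the 9 arrays, so that its level was not tested. Of the 16 regulators and cofactors listed, 15 were tested. None was called at 8 nM, beside 6.97% of all genes. The counts at 80 nM, 1 up and 2 down, stand beside 18.8% and 16.1% of all genes. At 80 nM, SQSTM1, whose protein p62 draws KEAP1 into autophagy, was up-regulated (1.03 ± 0.06, adjusted p = 3e-06), and MAFF, a small MAF partner of NRF2 (-0.75, adjusted p = 0.012), and CREBBP, an acetyltransferase that acts as coactivator (-1.19, adjusted p = 2.8e-05), were down-regulated. BACH1, the repressor best known for its hold on HMOX1, had a difference of 0.52 (adjusted p = 0.0067) and KEAP1 one of -0.33 (adjusted p = 0.0061), both under the fold limit. MAFG (0.03), MAFK (-0.05) and the related factor NFE2L1 (0.19) had adjusted p-values of 0.80, 0.55 and 0.097. The median of the 15 genes was -0.05 at 80 nM, beside 0.08 for all genes.

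A further list held 56 genes also known as NRF2 targets, and 46 of them were tested. At 8 nM, 2 were up-regulated, the stress sensor SESN2 (0.61, adjusted p = 0.0009) and TXNIP, an inhibitor of thioredoxin that NRF2 is known to repress (0.75, adjusted p = 0.0093), and 1 was down-regulated, the lipoprotein receptor LRP8 (-0.68, adjusted p = 0.0015). These counts stand beside 4.24% of all genes upwards and 2.72% downwards. SESN2 was at the fold limit and was not called without the second 8 nM array (0.58). At 80 nM, 11 of the 46 were up-regulated and 8 down-regulated, beside 18.8% and 16.1% of all genes, and TXNIP was then lower than in untreated cells (-1.28, adjusted p = 8.5e-05). The median of the 46 genes was 0.17, beside 0.08 for all genes.

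In the glutathione branch, 11 genes were tested and 4 were up-regulated at 80 nM, with none down-regulated, beside the same shares of all genes. MGST1, a microsomal glutathione transferase, rose by 2.04 (adjusted p = 3.2e-06), the transferases GSTM4 and GSTA4 rose by 1.30 and 0.97, and ABCC2, which exports glutathione conjugates, had a difference of 0.79 (adjusted p = 0.033). ABCC2 was well above background on all 3 arrays at 80 nM but on only 1 untreated array, so that it passed the filter through the group where it is high. It was not called with normexp (0.25), the authors' values (0.29) or the spike-in scale (0.51), nor without the third untreated array (0.67) or the second 80 nM array (0.72). GSR, which regenerates glutathione, was lower after 8 nM by 0.52 and after 80 nM by 0.44 on the log2 scale, with adjusted p-values of 0.0021 and 0.00064, but both values were under the fold limit. In the NADPH branch, IDH1, a cytosolic isocitrate dehydrogenase, rose by 1.04 at 80 nM. Thioredoxin itself, TXN, and the peroxiredoxin PRDX1 were not called at 80 nM, with differences of 0.16 (adjusted p = 0.28) and -0.26 (adjusted p = 0.094), beside the difference of -0.60 of TXNRD1, which reduces thioredoxin.

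Of 8 other genes tested in the handling of heme and iron, 3 were up-regulated at 80 nM and none was down-regulated, beside 18.8% and 16.1% of all genes. SLC40A1, the iron exporter ferroportin, rose by 3.02 ± 0.10 (adjusted p = 1.5e-07), the heme transporter SLC48A1 by 1.47, and the ferritin light chain FTL by 0.79, beside the fall of 1.46 of HMOX1. BLVRA, which reduces the biliverdin that HMOX1 makes, had a difference of -0.38 (adjusted p = 0.028) under the fold limit. It was called on the spike-in scale (-0.66). All its 80 nM arrays lay below untreated cells, as did those of 31.7% of all genes. BLVRB, of the same list, went the other way, with 0.215 (adjusted p = 0.15). Its 80 nM arrays lay above untreated cells, as did those of 40.3% of all genes. A last group of 6 NRF2 targets with other roles had none up-regulated and 3 down-regulated at 80 nM, LRP8 (-1.38), the death receptor TNFRSF21 (-1.14) and HTATIP2, which was at least 3.09-fold lower and not well above background there, and the median of the 6 was -0.85. HTATIP2 passed the filter only through the untreated and 8 nM groups, where it is high.

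Of 10 other NRF2 targets tested in quinone, carbonyl and drug metabolism, 2 were up-regulated and 4 down-regulated at 80 nM, beside 18.8% and 16.1% of all genes. AKR1C3, the closest relative of AKR1C1 with a tested probe, was at least 18.6-fold lower at 80 nM than in untreated cells. The adjusted p of 6.1e-08 is that of its fitted difference and not of the bound. The carbonyl reductases CBR3 and CBR1 were at least 13.8-fold and at least 2.41-fold lower. As for AKR1C1, no 80 nM array had any of these 3 genes well above background, and they passed the filter only through the untreated and 8 nM groups, where they are high. The carboxylesterase CES1 was lower by 1.93 on the log2 scale, with only 2 of the 80 nM arrays well above background. UGDH and EPHX1 rose by 0.69 and 0.65. AKR1B1 was not called (0.03). AKR1C2 had no probe that could be matched, and whether RNA of this close relative of AKR1C1 also binds the AKR1C1 probes was not tested.

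Antioxidant enzymes outside the NRF2 lists and genes of the amino acid response, in which ATF4 also drives SLC7A11, give the surroundings. Of 22 other antioxidant enzymes, none was called at 8 nM, beside 6.97% of all genes. At 80 nM 6 were up-regulated and none down-regulated, beside 18.8% and 16.1% of all genes. The rises were led by the glutaredoxin GLRX (1.32), the mitochondrial peroxiredoxin PRDX3 (1.24), the methionine sulfoxide reductase MSRA (1.24) and the lipid peroxidase GPX4 (0.86). Of 15 genes of the ATF4 response, none was called at 8 nM, and 1 was up-regulated and 2 were down-regulated at 80 nM, beside the same shares of all genes. At 80 nM PSAT1 was up-regulated (0.60, 1.52-fold) beside SLC7A11, a call lost with normexp (0.57), on the spike-in scale (0.32), and without the first untreated array (0.58) or the third 80 nM array (0.56), while DDIT4 (-1.11) and ATF3 (-1.08) were down-regulated and ATF4 itself had a difference of -0.07 (adjusted p = 0.68).

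**Figure D4:**
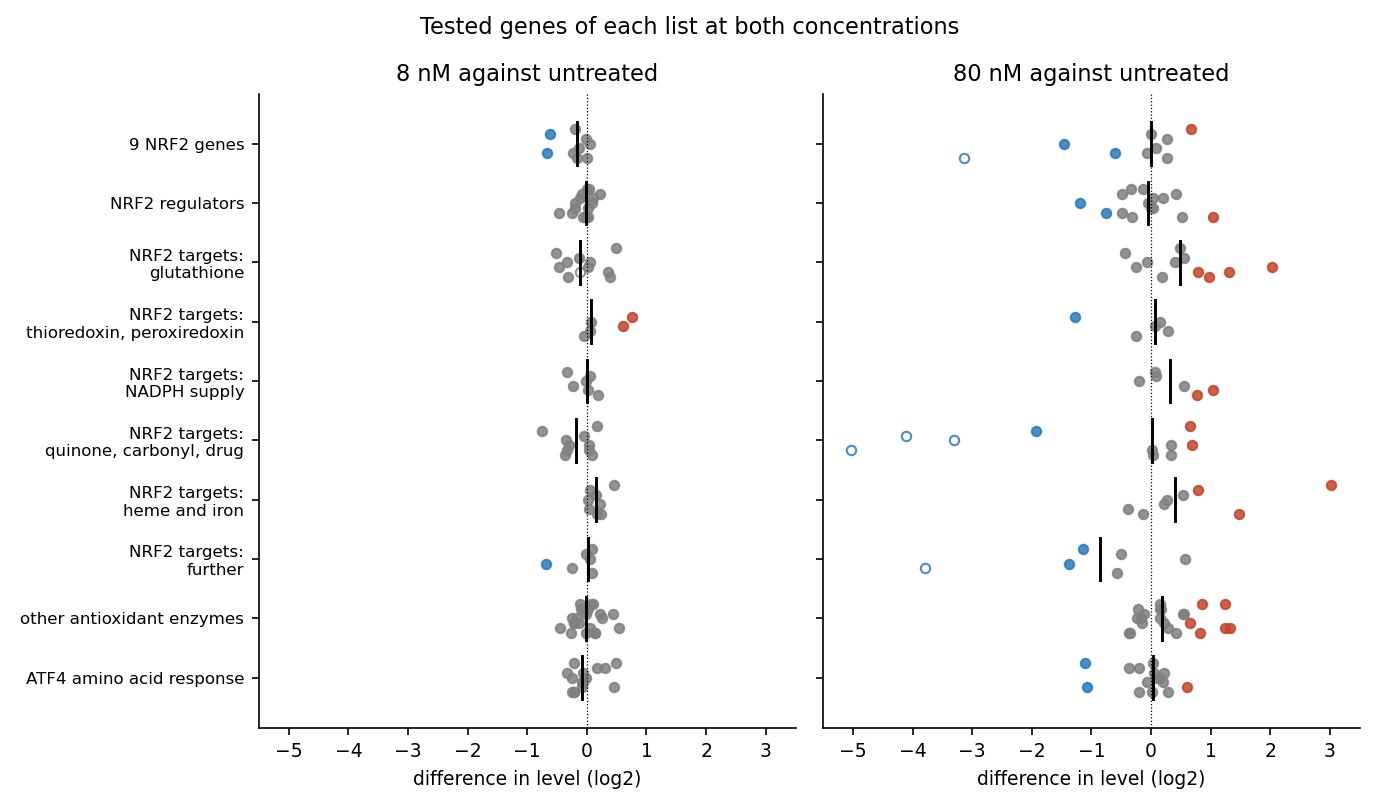
Difference in level (log2) of each tested gene of each list at 8 nM and at 80 nM against untreated cells. Red points were up-regulated, blue points down-regulated and grey points not called, open points were not well above background in 1 of the groups, and the black bar is the median of the list. At 80 nM the heme and iron list reaches 3.02 (SLC40A1) and the quinone and carbonyl list reaches -5.03 (AKR1C3, a fitted value below background).

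The scale chosen for the arrays moved the smaller differences. Relative to the spike-in probes, the median of all genes at 80 nM moved from 0.08 to -0.20 and the share of called genes that were down-regulated from 46.2% to 71.8%. On that scale HMOX1 stood at -1.74, TXNRD1 at -0.88 and AKR1C1 at -3.42, all still called by the unadjusted p. The adjusted p of TXNRD1 was 0.075 there. SLC7A11 was at 0.40 with an adjusted p of 0.25 and was not called. Less the median of all genes, SLC7A11 was at 0.60 and HMOX1 at -1.54 on both scales. This equality is fixed by the method, since either scale shifts all genes of an array by the same amount, and it is no separate evidence. At 8 nM the median of all genes moved from -0.06 to 0.02 on the spike-in scale, and no gene of the 9 was called there.

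**Figure D5:**
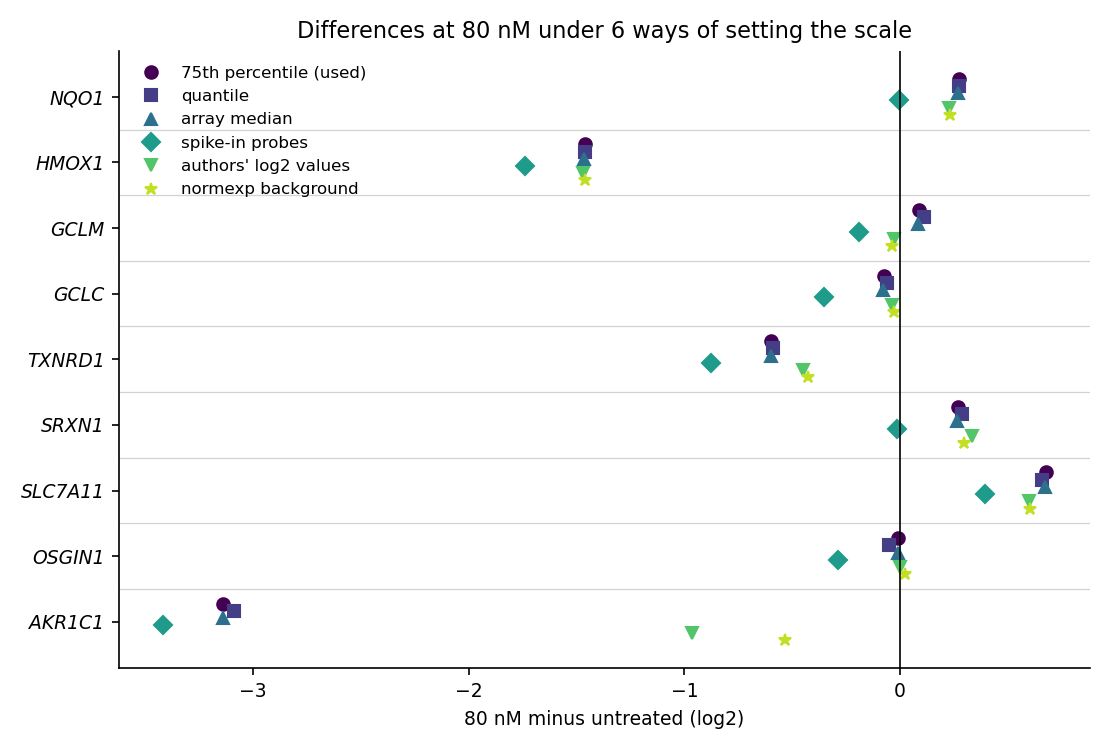
Difference between 80 nM and untreated cells (log2) of each gene under 6 ways of setting the scale. HMOX1 lies between -1.74 and -1.46 under all 6, SLC7A11 between 0.40 and 0.68, and AKR1C1 between -3.42 and -0.53, with the authors' values and normexp nearest to 0.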

How the data were processed

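Total RNA of 3 untreated, 3 8 nM and 3 80 nM cultures, independent biological replicates per the study's methods, was labelled with Cy3 and hybridized to Agilent SurePrint G3 Human arrays, 1 array for each. The authors extracted the spots with Feature Extraction 10.7.3.1, and the deposited processed intensity is background-subtracted and not scaled between arrays, while the spot and local background medians are raw. The authors also deposited log2 values per probe that had been normalized between arrays without background subtraction, and these were used as an alternative only.

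The log2 processed intensity was reduced by the 75th percentile of its array over gene spots (831.7 to 1170). Control and outlier spots were left out and spots of a probe averaged on the log2 scale. The filter kept a probe where any group had it well above background on its 3 arrays, and a gene was represented by its brightest kept probe. The slides carried 2 versions of the design file, and the OSGIN1 probe has that name in the version of the 80 nM slide only. Names came from RefSeq (GRCh38.p14), which matched 25780 of 27271 RefSeq probes. Comparisons used limma 3.58.1 in R 4.3.3 (lmFit, eBayes) on all 9 arrays, with Benjamini-Hochberg adjustment, and the code was tested on simulated data. The number of arrays limits the precision.

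The members, the lists and the tests were chosen with earlier results of these data known. The text names the 9 genes, 8 regulators, AKR1C2, AKR1C3, SLC3A2, TXN, PRDX1, GSR and GAPDH always, for each other list up to 4 of the largest called changes with an adjusted p under 0.05 in a comparison. The genes with levels nearest to those of AKR1C1 are not reported, since AKR1C1 was not well above background at 80 nM. Other genes named (CREBBP, ATF4, AKR1B1, BLVRA, TNFRSF21, HTATIP2, UGDH, EPHX1, CBR1 and the like) were chosen after their values were seen. Untreated and 8 nM arrays with the same replicate number deviated together from their group means, though weakly (r = 0.114, 0.101 and 0.163). By the rule used here these numbers were taken as pairs, which rests on the data and not on a label. Deviations from a mean of 3 arrays are tied to one another, so these values cannot establish that the cultures were paired. The numbers of the 80 nM arrays did not pair with those of the other groups (r between -0.124 and 0.016). Alternatives changed 1 step at a time: the background (normexp, offset 50), the scale (quantile, array median or 10 spike-in probes), the source (the authors' log2 values), the filter (none, or well above background on 9 arrays), the probe rule (mean of the probes, or every probe as a feature), the fit (a replicate block, or 2 groups only), the call (adjusted p, with or without the fold limit) and the arrays (leaving out each). A block of slides was not run, because no comparison has both groups on more than 1 slide. Added after seeing the data were the replicate block with only the groups compared, and AKR1C1 without 1 spot.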

Additional observations from a re-analysis of the deposited data

How the results depend on the processing

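Of the 9 genes, HMOX1 at 80 nM kept its direction and its call under every alternative run and with each array left out. The count of genes down-regulated at 8 nM went from 2 to 1 with normexp, quantile normalization, the authors' values, and adjusted p-values with or without the fold limit, to 0 with the spike-in scale, and to between 0 and 2 with 1 array left out. The count up-regulated at 80 nM went from 1 to 0 with the spike-in scale, to 2 with adjusted p-values and no fold limit, and to between 0 and 1 with 1 array left out. The count down-regulated went from 3 to 1 with normexp, to 2 with the authors' values or with a filter on all 9 arrays, and to between 2 and 3 with 1 array left out. Between the concentrations, the 2 higher genes became 1 with normexp, quantile normalization or the authors' values, 0 with the spike-in scale, and 1 to 2 with 1 array left out, and the 2 lower genes became 1 with normexp or with a filter on all 9 arrays.

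Signs turned for differences that were not called. With the spike-in scale, NQO1 at 8 nM was 0.064, at 80 nM NQO1, GCLM and SRXN1 were -0.0066, -0.19 and -0.012, and between the concentrations NQO1, GCLM, GCLC, TXNRD1 and SRXN1 were -0.0705, -0.14, -0.19, -0.29 and -0.0958. GCLM at 80 nM was -0.035 with normexp and -0.030 with the authors' values, and OSGIN1 at 80 nM was 0.025 with normexp and 0.0004 with the authors' values. At 8 nM SRXN1 was -0.0101 with the array median, and AKR1C1 was 0.21 as the mean of its probes and 0.59 for the other probe. With each array left out, NQO1 at 8 nM lay between -0.13 and 0.078, HMOX1 at 8 nM between -0.15 and 0.24, SRXN1 at 8 nM between -0.037 and 0.069, GCLM at 80 nM between -0.054 and 0.19, OSGIN1 at 80 nM between -0.16 and 0.072, and TXNRD1 between the concentrations between -0.23 and 0.27. The cause of each change was not tested. A replicate block was also used in a limma fit limited to the untreated and 8 nM arrays, taken as pairs by the data-based rule only. There 2 of the 9 genes were again down-regulated at 8 nM and no call of the 9 genes changed. The adjusted p was 0.056 for OSGIN1 and 0.16 for TXNRD1.

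At 80 nM the 46 other NRF2 targets had between 6 and 18 genes up-regulated (11 as reported) and between 3 and 12 down-regulated (8 as reported) over 15 settings, and between 10 and 12 and between 8 and 9 with 1 array left out. At 8 nM these 46 genes had 2 to 5 up and 1 to 5 down (2 and 1 as reported), and 1 to 2 and 1 to 3 with 1 array left out. The 15 regulators had 1 to 3 up and 1 to 6 down at 80 nM (1 and 2 as reported). The 22 other antioxidant enzymes had 3 to 10 up and 0 to 3 down at 80 nM (6 and 0 as reported). The 15 ATF4 genes had 0 to 2 up and 2 to 4 down at 80 nM (1 and 2 as reported). Signal over background limits AKR1C1, AKR1C3, CBR1, CBR3 and HTATIP2 at 80 nM to bounds, and the OSGIN1 probe lies near that limit on every array.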

Other observations

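The first untreated array was the lowest of its group for 7 of the 9 genes (NQO1, HMOX1, GCLM, GCLC, TXNRD1, SLC7A11 and OSGIN1), and the first 8 nM array was the lowest of its group for 7 of the 9 as well. No 80 nM array was the lowest for more than 4. The median SD of the 9 genes within a group was 0.21 in untreated cells, 0.18 after 8 nM and 0.06 after 80 nM. Over all genes tested it was 0.11, 0.16 and 0.09. Single genes departed from these medians. AKR1C1 and OSGIN1 had SDs of 1.75 and 0.099 at 80 nM, above that of all genes. SRXN1 and GCLC had SDs of 0.016 and 0.10 in untreated cells, below that of all genes.

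Other aldo-keto reductases, looked at after the values of AKR1C1 were seen, were measured besides AKR1C3, which was lower at 80 nM like AKR1C1. AKR1A1 rose by 0.93 (adjusted p = 6e-06), and AKR7A3, AKR7L and AKR7A2P1, which lie near one another in sequence so that their probes may share RNA, rose by 0.64, 0.61 and 0.69. AKR1C4 and AKR1C8, of the same chromosome 10 family as AKR1C1, were not well above background on any array.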
